A study of Danio rerio with 6 samples.

Results

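A set of 10 bone formation and mineralization genes was followed in zebrafish homozygous for pikfyve-delta8. They are runx2a, runx2b, sp7, sparc, spp1, bglap, mgp, entpd5a, phex and acp5a, chosen by gene symbol as 10 of the 25645 genes of the deposited expression table. RNA sequencing covered 3 wild-type samples and 3 samples homozygous for this CRISPR/Cas9 allele, which is described as lacking function of the phosphatidylinositol phosphate kinase domain of Pikfyve. Pikfyve is a lipid kinase of late endosomes and lysosomes. The labels give no tissue, age or strain and no treatment, and they do not say that samples of a group came from separate fish or pools, so p-values speak only of sample-to-sample spread, part of which may be technical.

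Bone is laid down by osteoblasts and taken up by osteoclasts. Runx2 factors commit cells to the osteoblast lineage, and Sp7 (osterix) acts later to complete osteoblast differentiation. Osteoblasts secrete type I collagen with smaller matrix proteins, onto which calcium phosphate is deposited. Mineralization also needs phosphate, which ectonucleotidases and phosphatases release locally, and it is held back by inhibitors such as matrix Gla protein. Osteoclasts dissolve the mineral with acid and digest the matrix with lysosomal enzymes.

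Total estimated counts were 14677252 to 14949605 per sample. The targeted gene, pikfyve, stood at 52.1 to 56.6 CPM (read counts relative to library size, scaled with TMM factors) in the wild-type samples and at 61.2 to 73.6 CPM in the mutants, and this total cannot show the edited bases. Of 21104 genes tested with edgeR's quasi-likelihood test, 25.1% were higher and 23.0% lower in the mutants at an adjusted p under 0.05, together 48.0%. Scaled by library size alone, the counts gave 3824 higher and 6561 lower genes, against 5295 and 4845 with TMM, and the median change over all genes went from 0.0039 to -0.14 on the log2 scale. Changes below are therefore relative to the TMM reference. Leaving out any 1 wild-type sample also cut the calls, to 4138 to 4197 higher and 3624 to 3698 lower genes. Calls lost that way below stand beside this loss over all genes. Each log2 fold change is the mutant level minus the wild-type level, ± SE. Levels given as mean ± SD are in CPM over 3 samples a genotype unless another scale is named.

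Among the 10 bone genes, runx2b and spp1 rose and sp7 fell in the mutants. In bulk samples a changed number of osteoblasts and changed RNA per osteoblast cannot be told apart. Transcripts of entpd5a, phex, acp5a and sparc did not pass the test. The remaining genes, runx2a, bglap and mgp, had too few reads to be tested. The count of 3 called among 7 tested is near the background of 48.0%, as are the 2 higher against 25.1% and the 1 lower against 23.0%. For 5 of the 7 tested genes the samples of the genotypes did not overlap in CPM, against 58.8% of all tested genes. Of these, runx2b, spp1, entpd5a and acp5a were higher in every mutant sample and sp7 was lower, against 30.1% and 28.7% of all tested genes. This depended on the scale. In deposited TPM values (described below) entpd5a and acp5a overlapped, whereas phex and sparc were lower in every mutant sample. The share of all genes without overlap in TPM was not computed.

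**Figure D1:**
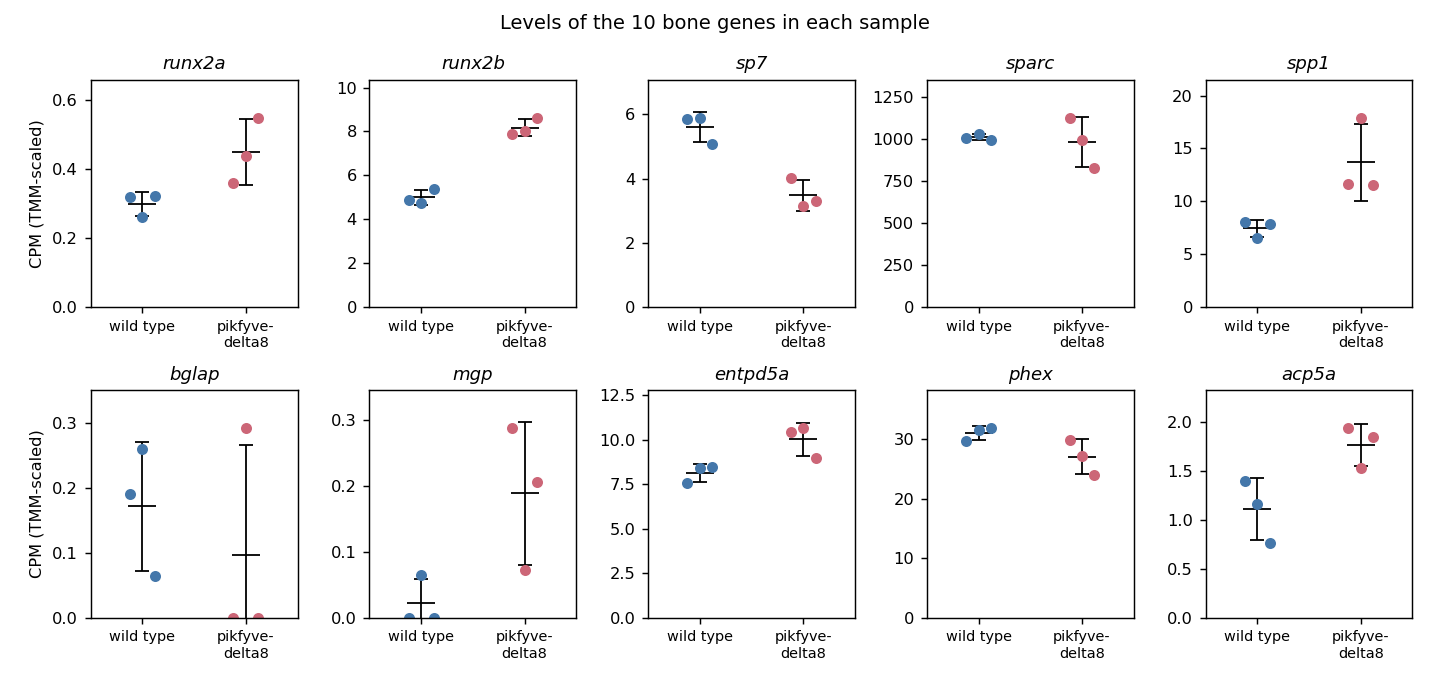
Level of each of the 10 bone genes in CPM (vertical axis, from 0, a separate scale per gene) in 3 wild-type (blue) and 3 pikfyve-delta8 (red) samples. Points are samples, and bars are mean ± SD. The mutant samples of runx2b and spp1 all lie above the wild-type samples and those of sp7 all lie below them, while runx2a, bglap and mgp lie under 0.6 CPM in every sample.

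The genes differed widely in level. In TPM, a relative abundance that corrects for transcript length, sparc stood at 896 ± 8.54 TPM in wild type and ranked 214th of all genes. The next was phex at 16.3 ± 0.548 TPM, followed by spp1 at 7.65 ± 0.968 TPM and entpd5a at 2.61 ± 0.146 TPM. The wild-type ranges of these 4 genes did not overlap from each to the next. Below them, bglap at 1.89 ± 1.06 TPM, acp5a at 1.55 ± 0.608 TPM, runx2b at 1.5 ± 0.181 TPM and sp7 at 1.3 ± 0.0964 TPM overlapped with their neighbours in this order, and the range of bglap also reached that of entpd5a. The place of bglap is uncertain, as it rests on 8 counts over the wild-type samples. Its TPM also rests on a very short length, 0.111 to 0.114 kb as implied by its deposited count and FPKM. Such an implied length need not be the full transcript length. The lowest were runx2a at 0.270 ± 0.0346 TPM and mgp at 0.0800 ± 0.139 TPM, which overlapped each other. In the mutants phex at 12.6 ± 0.864 TPM and spp1 at 12.5 ± 2.94 TPM overlapped, whereas runx2b at 2.11 ± 0.206 TPM lay above sp7 at 0.720 ± 0.0900 TPM without overlap.

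The transcription factor genes went in opposite directions. The osteoblast commitment gene runx2b had 4.89, 4.73 and 5.38 CPM in wild type and 7.90, 8.01 and 8.63 CPM in the mutants. All mutant samples lay above all wild-type samples, and the samples within each genotype were close together. This was a rise of 0.71 ± 0.14 on the log2 scale, or 1.63-fold, with a 95% interval of 1.32 to 2.02 (edgeR quasi-likelihood test, adjusted p = 0.00208). The call was lost on unfiltered log2(FPKM + 1) values, where the log2 fold change was 0.31 (adjusted p = 0.0503, range 0.00193 to 0.0503 over all alternatives). It was also 0.31 on filtered log2(FPKM + 1) values (limma, adjusted p = 0.0442), a scale that understates the change of low genes. On log2(FPKM + 0.1) values it was 0.49 (limma, adjusted p = 0.0495). The call of runx2b was thus near the threshold on each FPKM scale. FPKM relates reads to transcript length and library size.

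The length behind the FPKM of runx2b, as implied by its deposited count and FPKM, ranged from 3.67 to 4.79 kb between wild-type samples and from 4.12 to 4.45 kb between mutants. For sp7 it was 5.34 to 5.39 kb in all samples. In TPM runx2b stood at 1.29, 1.57 and 1.63 in wild type and at 1.91, 2.09 and 2.32 in the mutants, again without overlap. With offsets for these lengths the log2 fold change was 0.66 (adjusted p = 0.00535).

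The osteoblast differentiation gene sp7 had 5.85, 5.90 and 5.06 CPM in wild type and 4.02, 3.13 and 3.29 CPM in the mutants. All mutant samples lay below all wild-type samples, with pikfyve-delta8 replicate 1 the nearest to them. Its log2 fold change was -0.69 ± 0.17, so that the level in the mutants was 62.2% of that in wild type (edgeR, adjusted p = 0.00849). The 95% interval of the ratio ran from 0.477 to 0.811. The direction and the call held under all 17 settings that tested sp7, with adjusted p from 0.00370 to 0.0398. The fit with length offsets is among them but gave sp7 no offset of its own, as its FPKM was under 1 in some samples. On unfiltered log2(FPKM + 1) values the change shrank to -0.37 and was still called.

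Within each sample the count of runx2b divided by that of sp7 does not depend on scaling. It was 0.837, 0.802 and 1.06 in the wild-type samples and 1.96, 2.56 and 2.62 in the mutants. Thus the 2 transcripts had similar counts in wild type, and every mutant sample held more runx2b than sp7 reads. This ratio was formed with the changes of both genes known and was not tested.

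The paralogue runx2a was barely detected. Its counts were 5, 4 and 5 in the wild-type samples and 5, 6 and 8 in the mutants, and the genotypes overlapped in counts. In CPM they did not, at 0.259 to 0.320 in wild type and 0.359 to 0.548 in the mutants, a gap of few reads. The ratio of summed levels, mutant to wild type, was 1.5 with an exact 95% counting interval of 0.714 to 3.24. Such intervals hold counting error alone, as reads that lack molecular identifiers are not separate draws of molecules. The log2 ratio of runx2b to runx2a was 4.07 ± 0.122 in wild type and 4.21 ± 0.241 in the mutants. This difference of 0.14 was smaller than the spread between mutant samples (exact two-sided permutation test, p = 0.400, with 0.1 the smallest p that 3 against 3 samples allow).

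**Figure D2:**
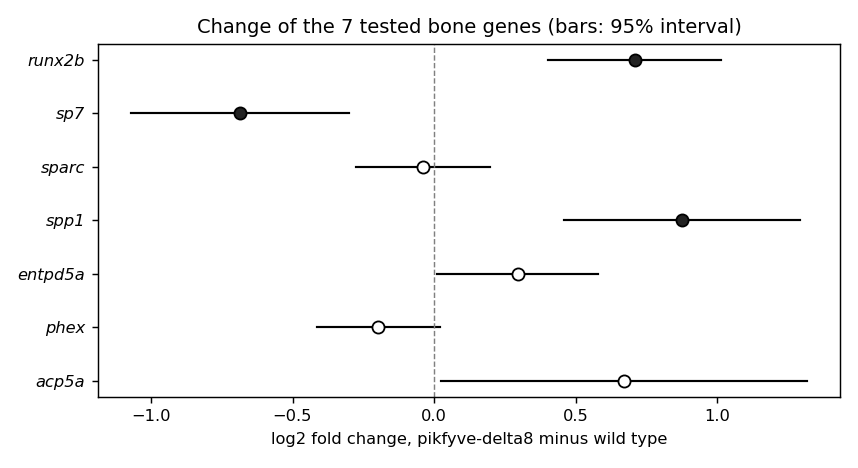
Log2 fold change, mutant minus wild type (horizontal axis), of the 7 bone genes that passed the filter on low counts. Circles are estimates, bars are 95% intervals, and filled circles have an adjusted p under 0.05 over all genes tested. Filled circles mark runx2b at 0.71, spp1 at 0.88 and sp7 at -0.69, and the interval of sparc is centred near 0.

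Of the matrix genes, spp1 rose and sparc did not pass the test. The spp1 gene encodes osteopontin, an acidic phosphoprotein that binds mineral and cells and that macrophages also make. It stood at 8.01, 6.54 and 7.81 CPM in wild type and at 11.6, 17.9 and 11.6 CPM in the mutants. All mutant samples were higher, and pikfyve-delta8 replicate 2 stood above the others. This was a rise of 0.88 ± 0.19 on the log2 scale, or 1.84-fold, with a 95% interval of 1.37 to 2.45 (edgeR, adjusted p = 0.00374). It was called under all 19 settings, with adjusted p from 0.000338 to 0.0234. The log2 change shrank to 0.64 without pikfyve-delta8 replicate 2 and to 0.63 on the log2(FPKM + 1) scales, the lowest of the settings tried.

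Immune cell markers also moved with the genotype. All 11 tested of 13 neutrophil markers rose, against 25.1% of all tested genes, with a median log2 fold change of 1.74. Their summed level was 1830 to 1981 CPM in wild type and 3155 to 3794 CPM in the mutants. The astacin-like protease gene npsn rose from 8.66 ± 1.02 to 58.4 ± 5.60 CPM and the lysozyme gene lyz from 11.8 ± 0.865 to 39.6 ± 2.50 CPM (edgeR, adjusted p = 5.95e-07 and 2.18e-06). Together npsn and lyz made up little of the summed level, which lay mostly in other genes of the list. Of 13 tested macrophage and microglia markers among 18 listed, 4 rose and 3 fell, with a median of 0.36. The shares were 30.8% higher and 23.1% lower, against 25.1% and 23.0% of all tested genes. Leaving out any of the wild-type samples left 1 lower, and unfiltered log2(FPKM + 1) values gave 7 lower. Their sum, 1226 to 1320 CPM in wild type and 1706 to 1948 CPM in the mutants, was mostly apoeb, an apolipoprotein gene with other sources. The macrophage perforin gene mpeg1.1 fell from 7.16 ± 0.663 to 1.97 ± 0.199 CPM, while the granulin gene grn1 rose from 16.7 ± 0.486 to 63.5 ± 9.51 CPM (edgeR, adjusted p = 3.37e-05 and 2.60e-06). On the log2(FPKM + 1) scales the fall of mpeg1.1 was -1.23 in log2, against -1.86. No marker of either list was at 0 in all samples, and the part of these cells in the rise of spp1 was not tested.

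The sparc gene encodes osteonectin, a collagen-binding protein that connective tissues other than bone also make. It stood at 1007, 1030.3 and 992 CPM in wild type and at 1126, 994 and 829 CPM in the mutants. In CPM the mutant samples lay on both sides of the wild-type samples, and their spread was larger, with an SD of 149 against 19.1 CPM. In TPM, however, all mutant samples were lower, at 866, 761 and 698 against 906, 892 and 890 in wild type. The log2 fold change was -0.04 ± 0.11, with a 95% interval of -0.28 to 0.20 (edgeR, adjusted p = 0.788), and the direction turned without pikfyve-delta8 replicate 3 (log2 fold change 0.055). The type I collagen gene col1a1a had the same order of mutant samples, at 2831, 2545 and 1807 CPM, and so did the cartilage collagen gene col2a1a, at 2299, 1779 and 1359.9 CPM. For all these genes pikfyve-delta8 replicate 1 was the highest and replicate 3 the lowest of the 6 samples in CPM. In TPM pikfyve-delta8 replicate 3 was again the lowest, but a wild-type sample was the highest for each gene.

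The vitamin K-dependent Gla proteins were near the limit of detection. Osteocalcin, a mineral-binding protein of mature osteoblasts encoded by bglap, had 3, 4 and 1 counts in the wild-type samples and 0, 4 and 0 in the mutants. The groups overlapped, and the ratio of summed levels was 0.554 with an exact 95% counting interval of 0.122 to 2.07. Matrix Gla protein, an inhibitor of calcification in cartilage and vessels encoded by mgp, had 0, 1 and 0 counts in wild type and 4, 1 and 3 in the mutants. In CPM the mutant samples of mgp were all higher, but the nearest, 0.0728 against 0.0648 CPM, each rest on 1 count. The wild-type total of 1 count gave a ratio of 8.86 with an interval of 1.19 to 393. With no filter on low counts mgp had an adjusted p of 0.0905 (edgeR), and on unfiltered log2(FPKM + 1) values it was called higher (log2 fold change 0.52, adjusted p = 0.0289). The limit that a count of 0 allows, 3 counts, equals 0.191 to 0.218 CPM here, so these samples cannot show changes of modest size in either gene.

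Neither entpd5a nor phex, whose products act on phosphate supply, passed the test. The entpd5a gene encodes an ectonucleotidase, and zebrafish that lack it do not form mineralized bone. It stood at 7.56, 8.42 and 8.45 CPM in wild type and at 10.4, 10.6 and 8.97 CPM in the mutants. All mutant samples were higher in CPM, pikfyve-delta8 replicate 3 only slightly. In TPM pikfyve-delta8 replicate 3, at 2.73, lay within the wild-type range of 2.45 to 2.74. Its log2 fold change was 0.30 ± 0.13 with a 95% interval of 0.01 to 0.58, and it did not pass adjustment (edgeR, adjusted p = 0.0801). Without pikfyve-delta8 replicate 3 it was called (log2 fold change 0.36, adjusted p = 0.0336), within a range of 0.0336 to 0.421 over all alternatives.

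The phex gene encodes a membrane endopeptidase of osteoblasts and osteocytes whose human counterpart is mutated in X-linked hypophosphatemia. It stood at 29.7, 31.5 and 31.8 CPM in wild type and at 29.9, 27.2 and 24.0 CPM in the mutants. The highest mutant sample lay just above the lowest wild-type sample. The log2 fold change was -0.20 ± 0.10 with a 95% interval of -0.42 to 0.02 (edgeR, adjusted p = 0.123). It depended on the scaling and on 1 sample. The fall was called with library size alone (log2 fold change -0.34, adjusted p = 0.0113), with upper-quartile scaling (-0.26, adjusted p = 0.0447) and without pikfyve-delta8 replicate 1 (-0.28, adjusted p = 0.0374). On the FPKM scales it was called too, at -0.32 to -0.34 (adjusted p = 0.0118 to 0.0162), and the alternatives together spanned adjusted p of 0.0113 to 0.277.

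The osteoclast enzyme among the genes is acp5a, which encodes a tartrate-resistant acid phosphatase, the classical stain for osteoclasts. It stood at 1.4, 1.17 and 0.769 CPM in wild type and at 1.94, 1.53 and 1.85 CPM in the mutants. All mutant samples were higher in CPM, but these levels rest on 12 to 27 counts per sample. In TPM the genotypes overlapped, with 1.83 in pikfyve-delta8 replicate 2 against 2.09 in wild type replicate 1. The log2 fold change was 0.67 ± 0.29 with a 95% interval of 0.02 to 1.32 (edgeR, adjusted p = 0.0810), and no setting called it (adjusted p = 0.0708 to 0.273). Its paralogue acp5b had more reads. It rose from 4.81 ± 0.425 to 7.07 ± 1.09 CPM, or by 0.55 ± 0.17 on the log2 scale (edgeR, adjusted p = 0.0200), with no overlap between genotypes. That call was lost with library size alone (adjusted p = 0.0596) and without wild type replicate 1 (0.0693), wild type replicate 2 (0.0842) or pikfyve-delta8 replicate 1 (0.0570). The log2 ratio of acp5a to acp5b was -2.15 ± 0.542 in wild type and -1.99 ± 0.327 in the mutants, a difference of 0.16 that was smaller than either spread (exact two-sided permutation test, p = 0.700). Adjusted over the 2 paralogue ratios tested, both p were 0.700. Without wild type replicate 3 that difference was -0.15, and without pikfyve-delta8 replicate 3 it was -0.008.

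**Figure D3:**
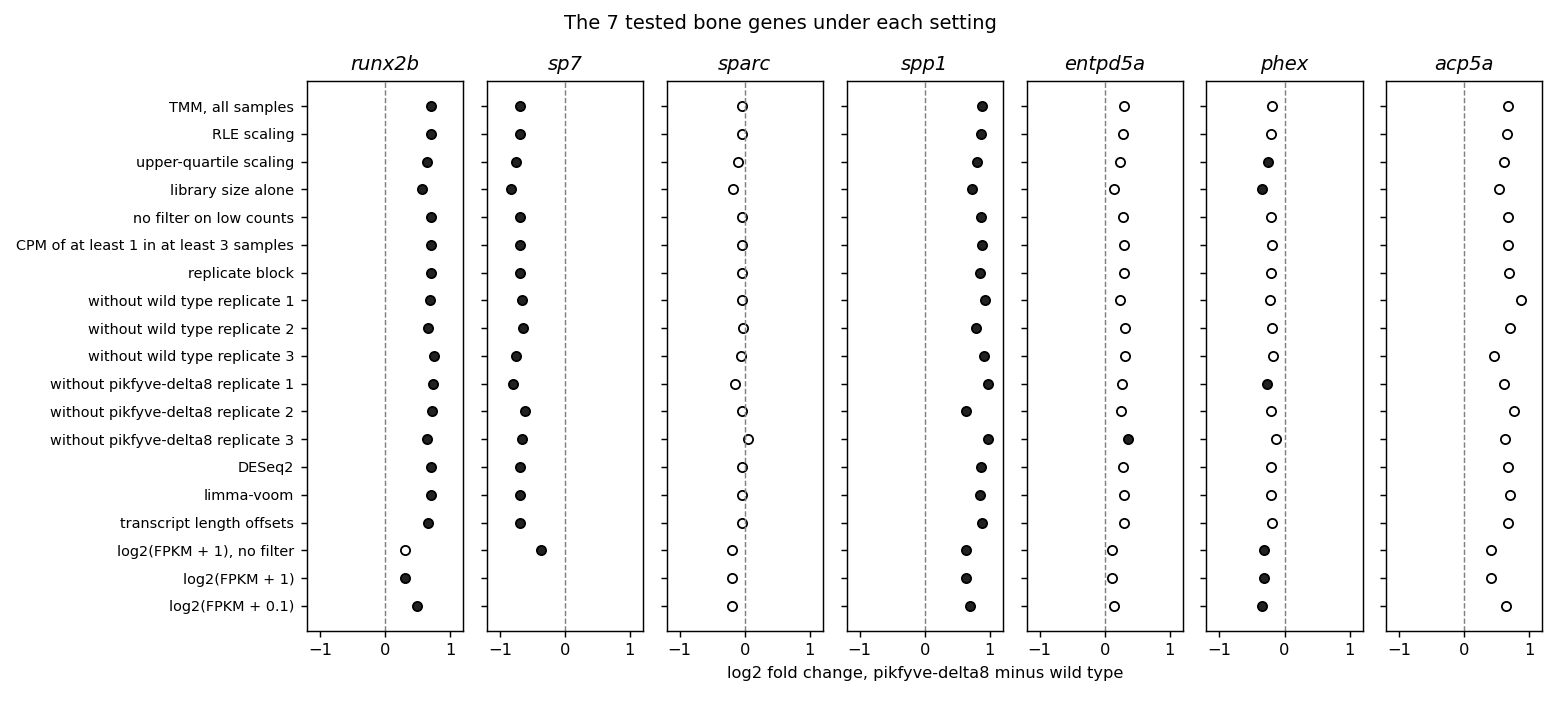
Log2 fold change, mutant minus wild type (horizontal axis), of the 7 tested bone genes under the reported fit (TMM, all samples) and each alternative (rows). Filled circles have an adjusted p under 0.05, and an empty place means that the gene did not pass that filter. In the row of length offsets, sp7 and acp5a had no offset of their own. The circles of runx2b, spp1 and sp7 are filled in 18 of 19, 19 of 19 and 17 of 17 rows, that of entpd5a in 1, those of acp5a and sparc in none, and those of phex in 6.

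Other genes of the osteoblast programme were examined from lists of known skeletal genes. Of 20 tested transcription factor genes of osteoblasts and their precursors, 5 rose, 3 fell and 12 did not pass the test, with a median log2 fold change of -0.01 against 0.0039 for all genes. Without runx2a, runx2b and sp7 themselves, 4 of 18 rose and 2 fell. The shares over all tested genes were 25.1% higher and 23.0% lower. The balance turned with library size alone, to 5 higher and 6 lower, and on the FPKM scales, to 3 or 4 higher and 5 lower. Over all tested genes it turned likewise, to 3824 higher and 6561 lower with library size alone. On log2(FPKM + 1) values 3568 were higher and 6252 lower, against 5295 and 4845 in the reported fit. These background shifts apply to the lists below as well. Besides runx2b, twist1a rose from 19.1 ± 1.60 to 33.6 ± 3.31 CPM (edgeR, adjusted p = 0.000222), and its mouse counterpart restrains Runx2. The stress-responsive gene atf4a, whose mouse counterpart also acts in osteoblasts, rose from 277 ± 12.1 to 556 ± 28.8 CPM, and atf4b from 285 ± 10.2 to 495 ± 44.7 CPM. The homeobox gene msx3 stood at 17.5 ± 0.801 and 13.7 ± 1.81 CPM with an adjusted p of 0.0300, and its call was lost with the replicate number as a block (adjusted p = 0.0507) and without any of the wild-type samples (0.0646 to 0.110).

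Of 5 further osteoblast genes, ifitm5 and alpl fell and phospho1, panx3 and col10a1a did not pass the test. The osteoblast membrane protein gene ifitm5 stood at 8.32, 7.84 and 9.86 CPM in wild type and at 6.25, 4.80 and 4.59 CPM in the mutants. All mutant samples were lower, and the log2 fold change of -0.73 ± 0.17 (edgeR, adjusted p = 0.00516) was near the -0.69 of sp7. The alkaline phosphatase gene alpl, whose product frees phosphate from pyrophosphate, fell from 35.2 ± 1.92 to 27.3 ± 3.54 CPM, or -0.37 ± 0.10 in log2 (edgeR, adjusted p = 0.0151). With wild type replicate 1 or 2 left out alpl was no longer called (adjusted p = 0.0549 and 0.0698), at log2 fold changes of -0.37 and -0.34. The phosphatase gene phospho1, at 3.95 ± 0.220 and 4.46 ± 0.599 CPM, and the channel gene panx3, at 3.74 ± 0.766 and 3.33 ± 0.770 CPM, did not pass (edgeR, adjusted p = 0.428 and 0.573). The same held for col10a1a, a collagen gene of osteoblasts in fish, at 308 ± 17.9 and 292 ± 29.8 CPM (adjusted p = 0.520), which was called lower with library size alone (adjusted p = 0.0321) and on the FPKM scales (0.0359 to 0.0456).

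**Figure D4:**
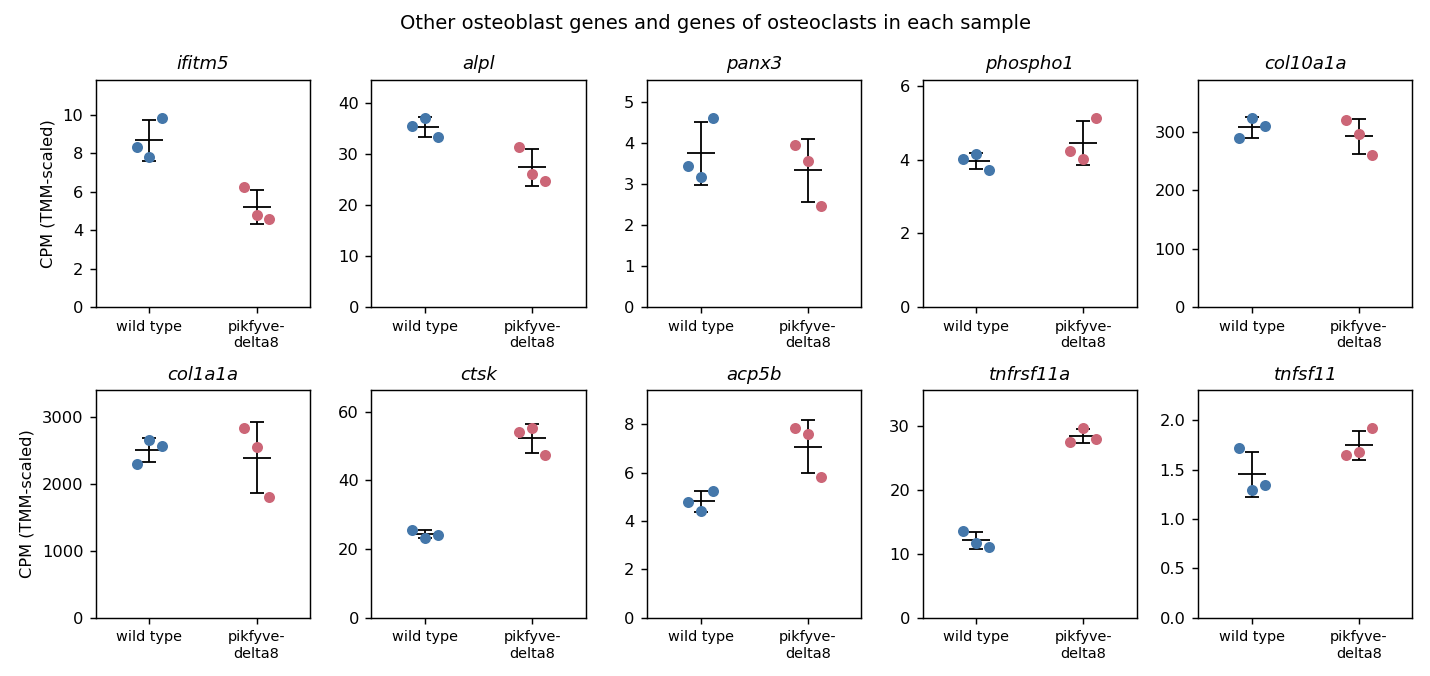
Level in CPM (vertical axis, from 0, a separate scale per gene) of 6 other osteoblast genes (ifitm5, alpl, panx3, phospho1, col10a1a, col1a1a) and 4 genes of osteoclast formation and function (ctsk, acp5b, tnfrsf11a, tnfsf11) in 3 wild-type (blue) and 3 pikfyve-delta8 (red) samples. Points are samples and bars are mean ± SD. The mutant samples of ifitm5 and alpl all lie below the wild-type samples, and those of ctsk, acp5b and tnfrsf11a all lie above them.

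Over the whole list of bone matrix and its assembly, 11 of 41 tested genes rose, 8 fell and 22 did not pass, with a median of 0.06. Without spp1 and sparc themselves, 10 of 39 rose and 8 fell. The shares over all tested genes were 25.1% higher and 23.0% lower. The balance turned to 10 higher and 13 lower both with library size alone and on log2(FPKM + 1) values. The type I collagen genes col1a1a, at 2506 ± 185 and 2394 ± 528 CPM, and col1a2, at 1252 ± 126 and 1309.8 ± 304 CPM, did not pass the test (edgeR, adjusted p = 0.744 and 0.769). Collagen-modifying enzymes went both ways. The prolyl 3-hydroxylase gene p3h1 fell from 19.5 ± 0.157 to 7.72 ± 1.38 CPM, which is -1.34 ± 0.13 in log2 (edgeR, adjusted p = 4.93e-05). Its partner gene crtap fell from 27.1 ± 0.490 to 18.5 ± 3.38 CPM and the collagen chaperone gene fkbp10b from 21.9 ± 1.49 to 13.9 ± 3.00 CPM (edgeR, adjusted p = 0.00558 and 0.00451). In all 3 genes every mutant sample lay below every wild-type sample. The third member of the complex of p3h1 and crtap, the cyclophilin gene ppib, stood at 294 ± 16.4 and 336 ± 43.7 CPM and did not pass (adjusted p = 0.137). In contrast, plod2, which encodes a lysyl hydroxylase of collagen, rose from 29.9 ± 1.74 to 49.1 ± 2.92 CPM, and sec24d, which encodes a coat protein of vesicles that export collagen, from 69.7 ± 2.71 to 96.9 ± 2.11 CPM (edgeR, adjusted p = 0.000106 and 0.000373). The genes crtap, fkbp10b and ppib, and pth4, scpp5 and scpp7 below, were named after their values were seen.

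Among secreted matrix proteins, the fibronectin gene fn1b rose from 412 ± 30.1 to 1349 ± 416 CPM (edgeR, adjusted p = 0.000438). The tenascin gene tnc fell from 182 ± 5.30 to 85.5 ± 17.9 CPM and the periostin gene postna from 83.8 ± 4.44 to 47.1 ± 9.12 CPM (adjusted p = 0.000201 and 0.000586). Its paralogue postnb, at 675 ± 26.9 and 548 ± 93.4 CPM, narrowly missed the threshold (adjusted p = 0.0536), and 9 alternatives called it lower, with adjusted p from 0.00453 to 0.0468. Genes of the secretory calcium-binding phosphoprotein family, to which spp1 belongs, moved apart. The gene scpp5 rose from 27.5 ± 2.61 to 44.5 ± 5.02 CPM (edgeR, adjusted p = 0.000564). The gene scpp7 fell from 2.37 ± 0.391 to 1.37 ± 0.0777 CPM (adjusted p = 0.0219), a call that was lost without wild type replicate 1 (0.0847) or 2 (0.0832) and with DESeq2 (0.0854).

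Of 39 tested genes of mineralization and of phosphate and calcium balance, 11 rose, 4 fell and 24 did not pass, with a median of 0.28. The higher share was 28.2%, against 25.1% of all genes, and the lower share was 10.3% against 23.0%. The counts moved with the scaling, to 9 higher and 8 lower under library size alone, 8 and 7 on log2(FPKM + 1) values and 10 and 9 on the same values without a filter. Without pikfyve-delta8 replicate 1 there were 10 higher and 7 lower. The vitamin D-degrading enzyme gene cyp24a1 stood at 26.4, 31.9 and 23.1 CPM in wild type and at 155, 110 and 162 CPM in the mutants. The groups were far apart, and the log2 fold change of 2.39 ± 0.17 (edgeR, adjusted p = 2.03e-05) exceeded that of any of the tested bone genes. Sodium-phosphate cotransporter genes moved in both directions. The gene slc20a1b rose from 145 ± 1.32 to 397 ± 26.2 CPM and slc34a1a from 2.95 ± 0.502 to 11.4 ± 1.71 CPM, whereas slc34a2a fell from 39.5 ± 2.33 to 16.2 ± 6.97 CPM (edgeR, adjusted p = 1.65e-06, 2.96e-05 and 0.00509). On the log2(FPKM + 1) scales the log2 fold change of slc34a1a was 1.2, against 1.94.

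The sphingomyelinase gene smpd3, which in mouse is needed for bone mineralization, fell from 16.3 ± 0.291 to 8.38 ± 0.384 CPM (edgeR, adjusted p = 7.83e-05). The parathyroid hormone family gene pth4 fell from 2.16 ± 0.286 to 0.968 ± 0.119 CPM (adjusted p = 0.00470), and its log2 fold change of -1.15 was -0.47 on unfiltered log2(FPKM + 1) values. The pyrophosphate exporter gene ankha stood at 5.30 ± 0.389 and 7.20 ± 0.594 CPM with an adjusted p of 0.0288, but 11 of 18 alternatives lost the call (0.0510 to 0.135), the replicate block among them (0.0583). The pyrophosphate-producing gene enpp1, at 47.1 ± 2.51 and 43.2 ± 4.79 CPM, did not pass (edgeR, adjusted p = 0.299) and was called lower with library size alone (0.0226) and on the FPKM scales (0.0321 to 0.0415). The phosphate hormone gene fgf23 had 3, 10 and 8 counts in wild type and 1, 7 and 2 in the mutants and was not tested.

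Most genes of osteoclast formation and function rose. Of 35 tested, 22 rose, 1 fell and 12 did not pass, with a median of 0.55. Thus 62.9% were higher and 2.86% lower, against 25.1% and 23.0% of all tested genes. The cathepsin K gene ctsk, which encodes the main collagen-degrading protease of osteoclasts, stood at 25.5, 23.3 and 24.2 CPM in wild type and at 54.1, 55.2 and 47.5 CPM in the mutants, a log2 fold change of 1.1 ± 0.09 (edgeR, adjusted p = 1.20e-05). The gene for the receptor RANK, tnfrsf11a, rose from 12.1 ± 1.31 to 28.5 ± 1.11 CPM (edgeR, adjusted p = 2.09e-05). Its ligand gene tnfsf11, at 1.45 ± 0.230 and 1.75 ± 0.148 CPM, did not pass (adjusted p = 0.398). The macrophage growth factor gene il34 rose from 2.69 ± 0.223 to 10.6 ± 2.11 CPM (adjusted p = 3.28e-05).

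The proton pump subunit gene tcirg1b rose from 20.4 ± 0.113 to 47.5 ± 8.04 CPM, and ostm1, which encodes the partner of a lysosomal chloride transporter, from 7.46 ± 0.859 to 21.9 ± 1.14 CPM (edgeR, adjusted p = 3.74e-05 and 1.04e-05). Both are lysosomal genes of many cell types, and their human counterparts are mutated in osteopetrosis. The gene of this list that fell was the calcitonin receptor gene calcr, from 6.80 ± 1.07 to 2.70 ± 1.1 CPM (edgeR, adjusted p = 0.00232), at -0.87 on the log2(FPKM + 1) scales against -1.32. The list also holds mmp9 and mmp13a, which are among the neutrophil markers above. The part of neutrophils or macrophages in these rises was not tested.

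**Figure D5:**
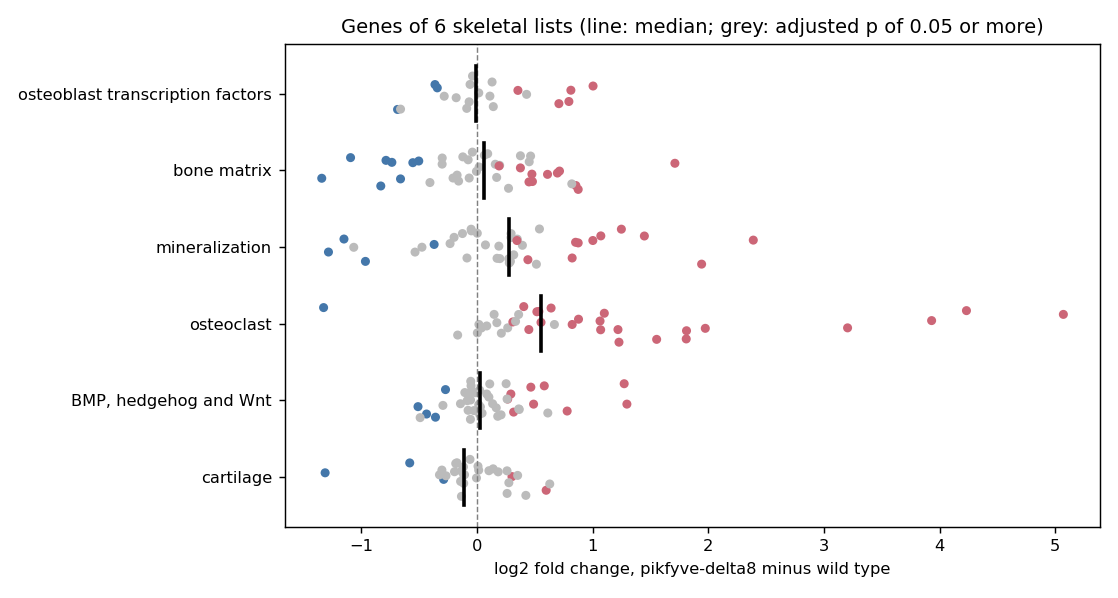
Log2 fold change, mutant minus wild type (horizontal axis), of every tested gene in 6 lists of skeletal genes (rows). Red points are genes that rose and blue points genes that fell at an adjusted p under 0.05, grey points did not pass, and black lines are list medians. The osteoclast list has its median at 0.55 with 22 genes higher and 1 lower, while the medians of the osteoblast factor, bone matrix, BMP and cartilage lists lie between -0.11 and 0.06.

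Of the signals that induce bone, 9 of 45 tested genes of BMP, hedgehog, Wnt and FGF signalling rose, 4 fell and 32 did not pass, with a median of 0.03, against 25.1% higher and 23.0% lower of all tested genes. With library size alone there were 6 higher and 6 lower, and on log2(FPKM + 1) values 5 and 6. Without pikfyve-delta8 replicate 2 or wild type replicate 1 or 2 only 2 were lower. There were 13 higher without pikfyve-delta8 replicate 3 and 11 higher without pikfyve-delta8 replicate 2. Leaving out pikfyve-delta8 replicate 1 gave 8 higher and 6 lower. The ligand gene bmp2b, at 14.4 ± 0.576 and 13.4 ± 1.5 CPM, did not pass the test (edgeR, adjusted p = 0.478). Among its signal transducers, smad9 rose from 16.7 ± 1.45 to 40.4 ± 3.33 CPM and smad1 from 33.5 ± 0.571 to 57.6 ± 3.42 CPM (adjusted p = 1.34e-05 and 3.78e-05). The BMP receptor gene acvr1l fell from 36.7 ± 1.19 to 25.8 ± 1.67 CPM (adjusted p = 0.000862). The Wnt antagonist gene dkk1a rose from 2.05 ± 0.382 to 5.05 ± 0.934 CPM (edgeR, adjusted p = 0.00103). The receptor gene fgfr3, at 79.2 ± 2.24 and 65.6 ± 8.33 CPM with an adjusted p of 0.0352, lost its call without any of the wild-type samples (0.0724 to 0.109) or pikfyve-delta8 replicate 2 (0.0928).

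Cartilage genes mostly did not pass the test. Of 31 tested, 2 rose, 3 fell and 26 did not pass, with a median of -0.11. The shares were 6.45% higher and 9.68% lower, against 25.1% and 23.0% of all tested genes. Without pikfyve-delta8 replicate 1 the counts were 1 higher and 10 lower, and without pikfyve-delta8 replicate 3 there were 6 higher, so the list depended on which mutant sample was included. Only 1 gene was higher without any of the wild-type samples, and only 1 was lower without wild type replicate 1. The link protein gene hapln1a, whose product ties aggrecan to hyaluronan, fell from 156 ± 6.49 to 62.8 ± 11.7 CPM (edgeR, adjusted p = 3.29e-05). The chondrocyte factor gene sox5 fell from 89.0 ± 0.604 to 73.0 ± 6.37 CPM (adjusted p = 0.0129, but 0.0515 without wild type replicate 1). The related sox6, at 13.8 ± 1.79 and 9.25 ± 2.15 CPM with an adjusted p of 0.0218, lost its call without wild type replicate 1 (0.0678) or 3 (0.0938). The chondrogenic factor gene sox9b rose from 25.2 ± 0.290 to 38.1 ± 9.13 CPM (adjusted p = 0.00935). Its log2 fold change of 0.60 became 0.39 without pikfyve-delta8 replicate 1. Its paralogue sox9a, at 32.0 ± 0.542 and 39.5 ± 5.18 CPM with an adjusted p of 0.0289, lost its call in 10 of 18 alternatives (0.0524 to 0.219). The cartilage collagen gene col2a1a, at 1952 ± 65.7 and 1813 ± 470 CPM, did not pass (adjusted p = 0.620).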

How the data were processed

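A single deposited table was used. Per the file headers, it holds estimated counts, FPKM and TPM per sample, made by the authors. Named in the submitters' processing notes, without order or settings, are Bowtie2, RSEM 1.3.1, DESeq2 1.4.5 and build GRCz11. The sources used here do not give strandedness, so antisense reads cannot be told apart. Counts of all 10 members were whole (tolerance 0.005). Columns of authors' group means were not used.

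Groups and replicate numbers came from sample titles. Rounded counts entered edgeR 4.0.16 under R 4.3.3 (filterByExpr, TMM, robust quasi-likelihood F-test, two-sided, Benjamini-Hochberg over all genes tested, threshold 0.05). SE is the log2 fold change divided by the square root of F. Alternatives were other scalings, filters, DESeq2 1.42.0, limma 3.58.1 (voom on counts, and trend on log2 FPKM plus 1 or 0.1, for genes reaching an FPKM of 1 in 3 or more samples), a block for replicate number, leaving out each sample, and, added after seeing the data, length offsets. For mgp, runx2a and bglap the unfiltered edgeR fit is the reference. The fit was tested on simulated counts of 20918 genes for the mutant against wild type comparison, where 88% of 50 genes raised 2-fold and 98% of 50 raised 4-fold were recovered, as were 86% of 50 reduced to 0.5 times and 100% of 50 reduced to 0.25 times their level. There 20 of 20718 unchanged genes were called. The genes changed in this simulation averaged 50 or more counts, and both genotypes had the same dispersion. Few genes were changed in it, with 20718 of 20918 left unchanged, whereas 48.0% of genes were called in the data. Its rates therefore do not carry over to smaller changes, to genes with fewer reads, to unequal spread between genotypes or to data where many genes change.

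The members and the 11 lists were chosen with earlier results of these data known. Of 302 distinct names listed, 299 were matched by symbol or by another name in a RefSeq table. Named genes are the members, 20 fixed context genes and, per list, up to 3 in each direction with the smallest p among called genes whose counts averaged 50 or more and whose genotypes did not overlap. From that rule slc7a7, marco, ctss2.1, srgn, lmod1b and notch3 are counted only, some genes are not reported here, and tnfrsf11b was not analysed here. No samples were alike to within counting noise (mean chi-square per gene at least 2.32, where 1 is noise alone). Between wild-type samples it was 2.32 to 2.79 and between mutants 11.4 to 18.9, so the mutant samples differed more among themselves. Figures were drawn with matplotlib 3.10.9.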

Additional observations from a re-analysis of the deposited data

How the results depend on the processing

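Members called higher or lower numbered 2 and 1, and lists are given below as counts of genes called. With library size alone, 2 members were lower, as were 6 osteoblast factors, 13 matrix, 8 mineralization and 6 cartilage genes, and 1 cartilage gene was higher. With upper-quartile scaling, 2 members and 7 mineralization genes were lower and 1 cartilage gene was higher. On filtered log2(FPKM + 1) values 5 osteoblast factors, 13 matrix, 7 mineralization and 6 cartilage genes were lower, and 5 BMP list genes and 1 cartilage gene were higher. With a pseudocount of 0.1 these were 5 osteoblast factors, 7 mineralization and 6 cartilage genes lower, and 5 BMP list genes and 1 cartilage gene higher. On unfiltered log2(FPKM + 1) values 2 members, 5 osteoblast factors, 9 mineralization and 5 cartilage genes were lower, and 3 osteoblast factors and 1 cartilage gene were higher. DESeq2 called 1 cartilage gene higher. Over all tested genes, library size alone gave 3824 higher and 6561 lower, and upper-quartile scaling gave 4644 and 5595. The FPKM scales gave 3568 to 3823 higher and 6189 to 6436 lower, against 5295 and 4845 in the reported fit. The cause of these shifts was not tested. Leaving out each sample in turn gave 1 to 2 members lower, 3 to 7 mineralization genes lower, 2 to 6 BMP list genes lower, 1 to 6 cartilage genes higher and 1 to 10 lower. The ratio of acp5a to acp5b then changed by -0.149 to 0.353, against 0.161, and turned sign without wild type replicate 3 (-0.149) or pikfyve-delta8 replicate 3 (-0.008). Osteoclast genes numbered 19 to 22 higher and 1 lower under all settings. Counts of the macrophage, fibroblast, notochord and mural markers also moved and stand beside those lists. For the 6 skeletal lists, the settings not named here left each count within 1.5 times its value. Same-numbered samples did not deviate together (correlations -0.0745, 0.0504 and -0.0479). No pairing by number was seen, although 3 samples a genotype cannot exclude one. With the replicate number as a block 2 members were higher and 1 lower, and log2 fold changes were 0.709 for runx2b, 0.854 for spp1 and -0.687 for sp7. That block gave 4967 higher and 4608 lower genes overall. Depth limits runx2a, bglap, mgp and fgf23, which had at most 10 counts in any sample.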

Other observations

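Markers of other cell types that surround or build the skeleton moved in both directions. Of 17 tested fibroblast and tendon markers 1 rose and 5 fell, with a median log2 fold change of -0.12. The shares were 5.88% higher and 29.4% lower, against 25.1% and 23.0% of all tested genes. Their summed level was 1229 to 1251 CPM in wild type and 1033 to 1206 CPM in the mutants. With library size alone 0 were higher and 9 lower, and on the FPKM scales 0 were higher and 7 to 9 lower. The tenascin X gene tnxba fell from 48.6 ± 2.34 to 25.7 ± 6.08 CPM (edgeR, adjusted p = 0.000921), the collagen VI gene col6a2 from 208 ± 6.30 to 165 ± 17.2 CPM (0.00945) and pdgfrl from 31.1 ± 1.46 to 22.3 ± 4.22 CPM (0.0112). The limb mesenchyme factor gene prrx1a rose from 31.9 ± 0.573 to 39.8 ± 0.411 CPM (adjusted p = 0.00470), a call that was lost with library size alone (0.0791) and on the FPKM scales (0.0623 to 0.0751).

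Of 13 tested notochord markers 3 rose and 2 fell, with a median of -0.12. The shares were 23.1% higher and 15.4% lower, against 25.1% and 23.0% of all tested genes. Their sum was 1345 to 1450 CPM in wild type and 1727 to 1948 CPM in the mutants. Higher calls numbered 2 under 13 of the 18 alternatives and 5 without pikfyve-delta8 replicate 3, and lower calls ranged from 1, without any of the wild-type samples, to 5 on the FPKM scales. The keratin gene krt18a.1 rose from 255 ± 8.85 to 626 ± 94.0 CPM and ccn2a, a connective tissue growth factor gene, from 111 ± 9.17 to 179 ± 17.0 CPM (edgeR, adjusted p = 1.52e-05 and 0.000251). Most of the rise of the notochord sum lay in krt18a.1 and ccn2a. The caveolin gene cav3 fell from 41.9 ± 0.923 to 31.0 ± 2.21 CPM (adjusted p = 0.00163). The calls of shha (adjusted p = 0.0484) and col8a1a (0.0485) were each lost with any wild-type sample left out. Of 19 settings, 6 called shha and 15 called col8a1a. Of 14 tested smooth muscle and mural markers 4 rose and 1 fell, with a median of 0.16. The shares were 28.6% higher and 7.14% lower, against the same 25.1% and 23.0%. Their sum was 616 to 712 CPM in wild type and 658 to 775 CPM in the mutants. Only 2 were higher with library size alone, upper-quartile scaling, DESeq2, the FPKM scales and without any wild-type sample or pikfyve-delta8 replicate 1, and 6 without pikfyve-delta8 replicate 3. None was lower without any wild-type sample or pikfyve-delta8 replicate 1 or 2. The pericyte receptor gene pdgfrb rose from 6.69 ± 0.837 to 11.4 ± 1.26 CPM (edgeR, adjusted p = 0.00182).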
